A study of Homo sapiens with 6 samples.

Results

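MST1 encodes macrophage-stimulating protein, a secreted ligand, and MST1R encodes RON, the receptor tyrosine kinase that binds it. On a focused glycogene array, every probe set whose RefSeq accession maps to either gene was taken, which gave 2 probe sets for MST1 and 1 for MST1R among 1259, so 2 of the 927 genes that could be named. The pair was chosen by measured values: the difference of MST1R between the groups was already known when it was taken up. The differences of both genes with and without doxycycline are therefore given as a description, with their errors and without a test. All 3 probe sets, 2 of them for MST1, had lower values on all 3 arrays with doxycycline than on any array without it. The same held for 104 of all 1259 probe sets (8.26%), and nothing is read from the count, since this contrast chose the pair.

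The cells were HCT116, established from a microsatellite-unstable colorectal cancer and stably transfected so that doxycycline switches on a gene. The 6 arrays fall into 2 groups of 3: ACVR2 WT cells with doxycycline and activin A, and ACVR2 WT cells with activin A alone. All 6 therefore carry the construct and received activin A, and no array shows doxycycline on cells without the construct, so the drug and the induced gene cannot be told apart. The titles name ACVR2, a type II activin receptor gene, whereas the source field gives AIM2, TGFBR2 and ACVR2 side by side. The labels state no dose, no duration, no number of clones and no separate cultures for the replicates, so the p-values below cover the variation among these arrays alone, and that variation may be technical.

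Macrophage-stimulating protein is made chiefly by the liver and circulates as an inactive single chain. Serine proteases such as hepsin, matriptase and the HGF activator cut it into the form that binds RON. RON belongs to the same receptor family as MET, the receptor of hepatocyte growth factor, and it is found on epithelial cells, colon included, and on some macrophages, where its signal runs through the PI3-kinase and MAP kinase pathways to cell movement and survival. The symbol MST1 has also been used for the kinase gene STK4. The accession matching keeps these apart, and no probe set here mapped to STK4.

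The genes lie near each other on the minus strand of chromosome 3, with 9 protein-coding genes between them. Because their probe sets had lower values in the same group, the 250 bases before each annotated start are shown, from RefSeq on GRCh38.p14 (both genes matched): chr3:49903874-49904123 for MST1R and chr3:49689475-49689724 for MST1, each written 5′ to 3′ along the minus strand. Capitals mark every match to CAGAC, a short SMAD-binding sequence, to GGGCGG, the GC box, or to TATAAA, the TATA box, on either strand; where 2 GC boxes overlap, the capitals run together.
MST1R: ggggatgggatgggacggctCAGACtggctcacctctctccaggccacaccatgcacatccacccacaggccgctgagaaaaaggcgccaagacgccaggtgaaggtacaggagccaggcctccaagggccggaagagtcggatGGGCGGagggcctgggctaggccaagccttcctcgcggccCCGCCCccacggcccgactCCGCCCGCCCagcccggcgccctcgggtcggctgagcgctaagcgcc
MST1: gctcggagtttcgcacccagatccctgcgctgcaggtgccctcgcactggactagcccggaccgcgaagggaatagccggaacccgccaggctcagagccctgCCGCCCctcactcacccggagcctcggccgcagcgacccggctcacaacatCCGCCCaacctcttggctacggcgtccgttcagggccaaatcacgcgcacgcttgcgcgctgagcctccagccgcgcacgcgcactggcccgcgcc
The MST1R stretch held 4 GC boxes, which begin 106, 66, 47 and 43 bases before the start, and 1 CAGAC match 230 bases before it. The MST1 stretch held 2 GC boxes, at 147 and 96 bases before the start, and no CAGAC match. TATAAA was in neither. Among 35116 stretches of the same length before RefSeq gene starts, 42.6% held a GC box, 38% held CAGAC and 10.7% held TATAAA. Both stretches were 70.8% G or C, against a median of 58% for all. A match is a description of letters only, and no binding was measured here.

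The receptor gene MST1R was read by probe set NM_002447.2_psr1_at. Without doxycycline its log2 level was 9.18, 9.13 and 9.15 on replicates 1, 2 and 3. With doxycycline its log2 level was 8.82, 8.76 and 8.92. The lowest array without doxycycline lay 0.21 log2 units above the highest array with it, and each group spanned less than that, 0.05 and 0.16 log2 units. The group means were 9.15 ± 0.03 without and 8.83 ± 0.08 with doxycycline (SD, n = 3 each). The difference was -0.32 log2 units (SE 0.05; 95% interval -0.44 to -0.19), a level 1.25-fold higher without doxycycline. In RNA from whole cultures, fewer cells expressing a gene and less RNA per cell cannot be told apart.

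The ligand gene MST1 was read by a pair of probe sets drawn from the same transcript record, which may share probes and are not independent measurements. On the first, NM_020998.2_psr1_s_at, the log2 levels were 8.64, 8.54 and 8.48 without doxycycline and 8.02, 8.12 and 8.19 with it, for replicates 1, 2 and 3. The groups were 0.29 log2 units apart at their nearest arrays. The means were 8.55 ± 0.08 without and 8.11 ± 0.09 with doxycycline (SD, n = 3 each), a difference of -0.44 log2 units (SE 0.06; 95% interval -0.60 to -0.28), 1.36-fold higher without the drug. On the second, NM_020998.2_psr1_x_at, the log2 levels were 8.69, 8.64 and 8.48 without and 8.28, 8.33 and 8.46 with doxycycline. Here the groups nearly met, with 0.03 log2 units between replicate 3 of each. The means were 8.61 ± 0.11 and 8.35 ± 0.09 (SD, n = 3 each), and the difference was -0.25 log2 units (SE 0.08; 95% interval -0.44 to -0.06).

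**Figure D1:**
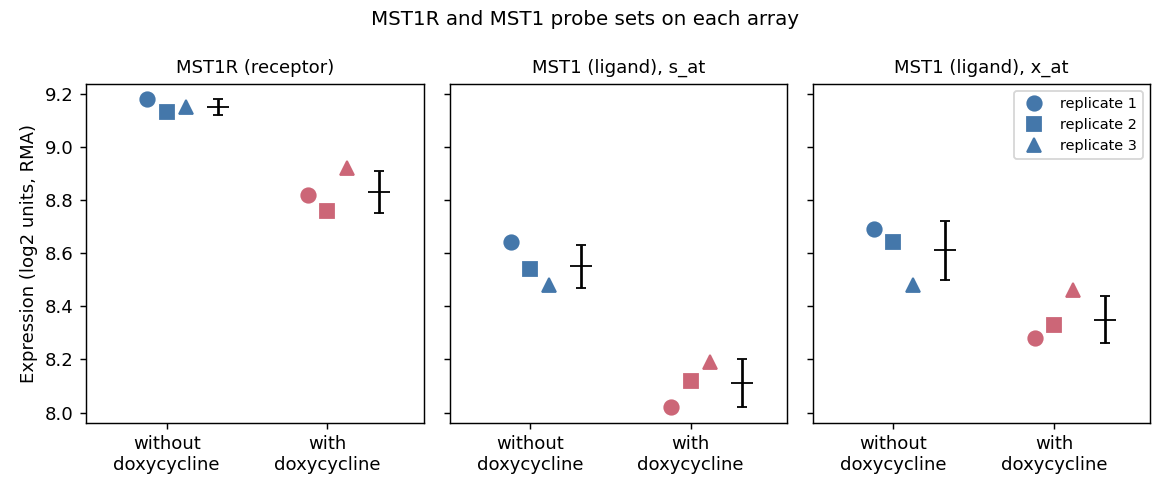
Expression in log2 units (vertical axis) of the MST1R probe set and both MST1 probe sets on each array, without and with doxycycline; symbols mark the replicate number, and the black bar beside each group is its mean ± SD of 3 arrays. In every panel all arrays with doxycycline lie below all arrays without it, by 0.21 log2 units for MST1R and by 0.03 for the x_at probe set of MST1.

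The MST1 probe sets shared a direction but not a size. Within each array, the s_at value minus the x_at value was -0.06, -0.10 and 0.00 log2 units on replicates 1, 2 and 3 without doxycycline, and -0.26, -0.20 and -0.27 with it. These groups did not overlap either, and the mean offset moved by -0.19 log2 units. In Affymetrix naming the suffixes s_at and x_at flag probes that can also match other transcripts. RefSeq lists MST1L and MST1P2, transcribed pseudogenes named after MST1, and neither has a probe set of its own here. How much of either MST1 value comes from such copies was not tested, so the size of the MST1 difference is uncertain between these readings.

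MST1 and MST1R were then compared on the same array. The s_at value of MST1 minus the value of MST1R was -0.54, -0.58 and -0.66 log2 units without doxycycline and -0.81, -0.63 and -0.72 with it, for replicates 1, 2 and 3. These groups overlapped, with means of -0.60 ± 0.06 and -0.72 ± 0.09 (SD, n = 3 each). With the x_at value the offsets from MST1R were -0.54 ± 0.10 without and -0.48 ± 0.06 with doxycycline (SD, n = 3 each), and these groups overlapped too. From the group without to the group with doxycycline the mean offset moved by -0.12 log2 units with the s_at value and by 0.07 with the x_at value, so no common direction was measured.

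Because both genes split the arrays into the same groups, a relation between them across the 6 arrays cannot be tested apart from that split. Once each group's mean was removed, the deviations of MST1R correlated with those of MST1 at 0.480 (s_at) and 0.553 (x_at) over 6 arrays, and those of the MST1 probe sets with each other at 0.907. Replicate 3 with doxycycline was the highest of its group for all 3 probe sets, at 0.08, 0.08 and 0.10 log2 units above the group mean for MST1R, MST1 s_at and MST1 x_at. Without that array the correlation of MST1R with the x_at probe set was 0.05. When the arrays were quantile normalized again it was -0.19, so the small deviations within groups show no settled relation between ligand and receptor.

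**Figure D2:**
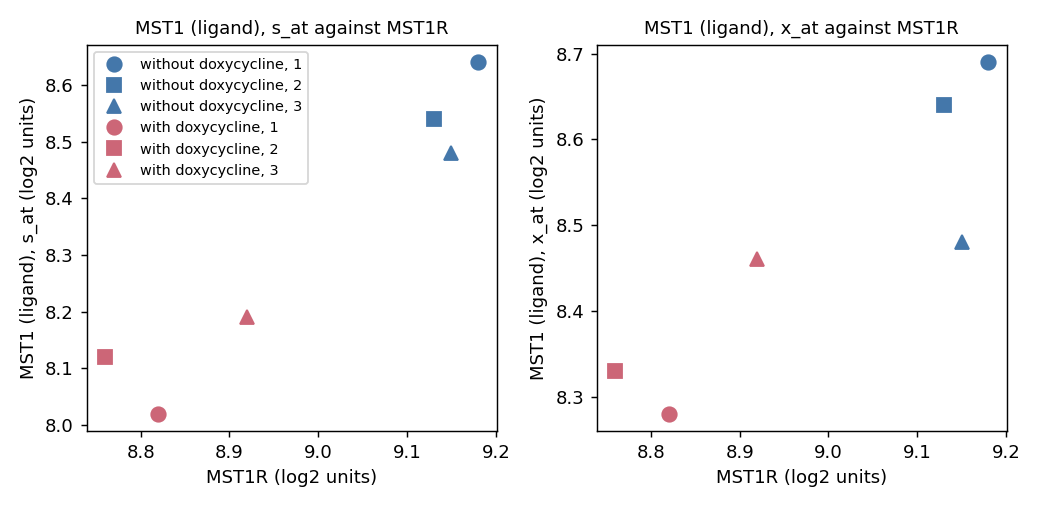
Log2 level of MST1 (vertical axis; s_at probe set on the left, x_at on the right) against the log2 level of MST1R (horizontal axis) on each of the 6 arrays; colours mark the groups and symbols the replicate. The arrays form 2 clusters by group, and on the x_at panel replicate 3 without doxycycline (8.48) and replicate 3 with it (8.46) are almost level for MST1.

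On every array both genes read above the array's median, which lay between 7.61 and 7.65 log2 units. MST1R exceeded between 69.8% and 73.7% of the probe sets of its own array, MST1 s_at between 58.5% and 66.7%, and MST1 x_at between 62.4% and 68.1%. Ordered from the most negative difference, MST1 s_at was number 23 of 1259, MST1R number 70 and MST1 x_at number 105. Larger negative differences than theirs were thus present on other probe sets. With limma, 0% of the 1259 probe sets passed an adjusted p of 0.05, and 98 (7.78%) had an unadjusted p under 0.05. All arrays with doxycycline lay below all arrays without it for 104 probe sets, 8.26% of the table, the background against which the 3 of 3 here stands; since this contrast chose the pair, nothing is read from that count.

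**Figure D3:**
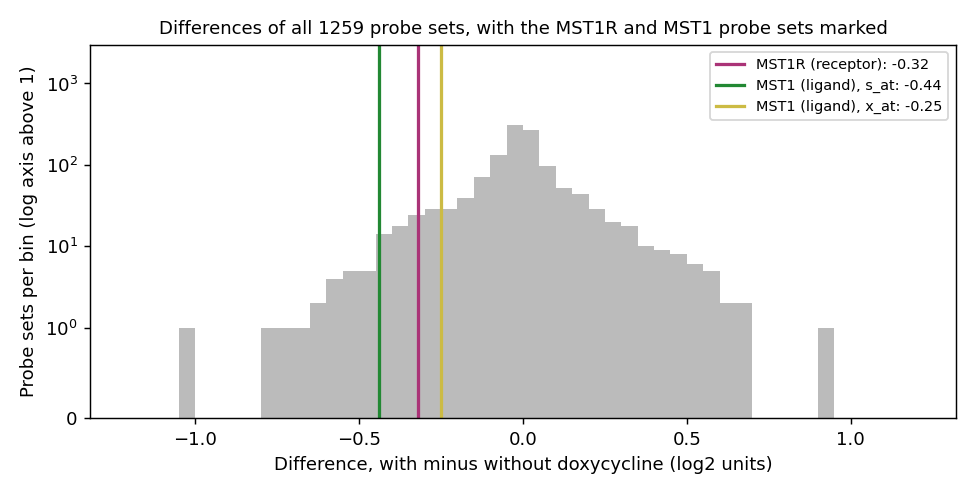
Number of probe sets (vertical axis, logarithmic above 1) by difference in log2 units, with minus without doxycycline (horizontal axis, bins of 0.05), for all 1259 probe sets. The lines mark MST1 s_at at -0.44, MST1R at -0.32 and MST1 x_at at -0.25, all on the left flank and none at its end.

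Replicate 3 without doxycycline stood apart from the other arrays. It correlated with them at 0.982 to 0.991 across probe sets, against 0.995 to 0.999 among the other 5. The values of MST1R did not depend on it: its deviation there was 0.00 log2 units, and the difference without it was -0.32. For MST1 it was the lowest array of its group, and without it the differences were -0.48 (s_at) and -0.31 (x_at) log2 units. The nearest arrays of the groups were then 0.18 log2 units apart for x_at in place of 0.03. ACVR2A, the activin receptor gene taken from the titles' ACVR2 as the one to be induced, did not read higher with doxycycline, at 8.15, 8.02 and 8.08 against 8.25, 8.07 and 8.70 log2 units for replicates 1, 2 and 3. Whether its probes lie in the introduced sequence is not known, so the arrays are named by their labels. Of 15 colon epithelial markers listed, MUC1, MUC2 and LGALS4 were measured, at 7.23 to 8.89 log2 units. MUC1, a membrane mucin, read 8.73, 8.89 and 8.78 without and 8.62, 8.69 and 8.71 with doxycycline. Its difference was -0.13 and its groups did not overlap, as for 15.8% of all probe sets. The groups of MUC2 and LGALS4 overlapped, and both genes read under every array's median, at 7.23 to 7.34 and 7.24 to 7.35. Further, 5 of 10 macrophage markers were measured, at 7.00 to 7.39, also under every array's median. Among them the groups of CD209 did not overlap, at a difference of -0.04, and those of the others overlapped. The log2 values of those 5 macrophage markers added up to 36.2 to 36.3 per array without and 36.2 with doxycycline. Those of the 3 epithelial markers added up to 23.3 to 23.5 without and 23.1 to 23.3 with it. Such sums of log2 values do not measure cell content. The part of these markers in the MST1R and MST1 values was not tested.

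Across 12 settings (the values as deposited, other scalings, a filter on dim probe sets, a replicate block, array weights and leaving out each array in turn) all 3 probe sets kept lower values with doxycycline. The difference of MST1R ran from -0.36 to -0.28 log2 units, that of MST1 s_at from -0.53 to -0.40, and that of MST1 x_at from -0.34 to -0.21. Because the groups did not overlap as deposited, only the rescaled values could turn a direction or bring the groups together. The filter, the block and the weights leave each array's value as it is, and leaving out an array cannot close a gap. With centred arrays the nearest arrays were 0.20 (MST1R), 0.30 (MST1 s_at) and 0.03 (MST1 x_at) log2 units apart. With the arrays quantile normalized again they were 0.24 and 0.27 apart for MST1R and MST1 s_at, and the groups of MST1 x_at met.

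**Figure D4:**
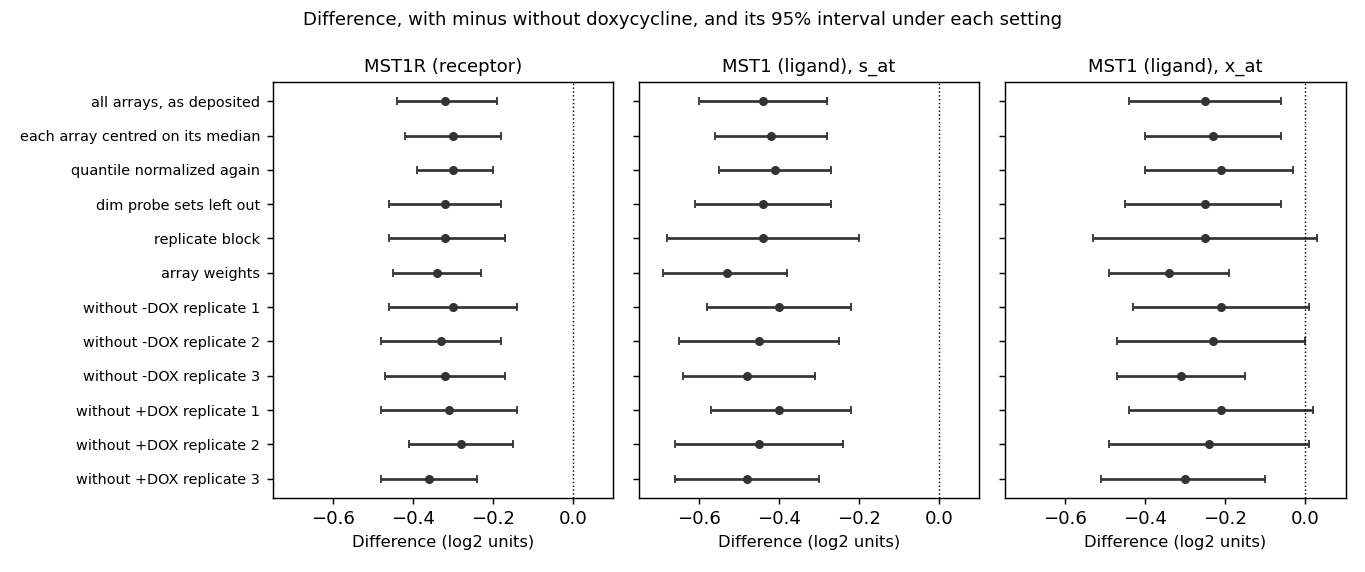
Difference in log2 units, with minus without doxycycline (horizontal axis; point, estimate; bar, 95% interval), for MST1R and both MST1 probe sets under 12 settings (rows). The estimates run from -0.36 to -0.28 for MST1R, from -0.53 to -0.40 for MST1 s_at and from -0.34 to -0.21 for MST1 x_at. With the replicate block the intervals ran from -0.46 to -0.17 for MST1R, from -0.68 to -0.20 for MST1 s_at and from -0.53 to 0.03 for MST1 x_at. The 12 settings reuse the same arrays, and this contrast chose the pair. The intervals are therefore a description of spread and no test against 0.

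MET, the closest relative of RON, and its ligand gene HGF were the measured members of a list of 23 genes for the HGF family and its activation; the proteases that cut macrophage-stimulating protein were not among those named. MET read 11.90, 11.22 and 12.51 log2 units without doxycycline and 11.47, 11.32 and 11.61 with it, for replicates 1, 2 and 3. Its groups overlapped, and its difference of -0.41 log2 units had an SE of 0.32 (limma, adjusted p = 0.730). Without replicate 3 of the cells lacking the drug it was -0.09. HGF, on its brightest probe set, read 6.90, 6.88 and 6.82 without and 6.80, 6.86 and 6.76 with doxycycline, near the lower quartile of the arrays (6.85 to 6.89). HGF differed by -0.06 log2 units with an SE of 0.04 (limma, adjusted p = 0.715), and its 3 other probe sets, at 0.04, 0.00 and -0.12, shared no direction. The difference of MET was thus larger than that of MST1R but had an SE of 0.32 against 0.05. The MET difference shrank without the array that stood apart, where that of MST1R stayed at -0.32. The contrast of MST1R was known when it was taken up, so this comparison is a description and no test. In this list 0 members passed with limma and 0 had an unadjusted p under 0.05, beside 7.78% of all probe sets. The measured members are too few to set against that share.

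Of 56 other receptor tyrosine kinases listed, 13 were measured, 2 with higher and 11 with lower values with doxycycline. With limma 0 passed and 0 had an unadjusted p under 0.05, beside 7.78% of all probe sets, and 13 genes are too few to set against that share. Of all probe sets 54.6% had lower values. The median difference of the 13 was -0.06 log2 units, against -0.011 over those 927 genes. The groups overlapped for all 13, where 15.8% of all probe sets had groups that did not. IGF1R, the receptor of insulin-like growth factors, was at -0.33 log2 units (SE 0.22), and FGFR2, a fibroblast growth factor receptor, at -0.34 (SE 0.27). Both shrank without the array that stood apart, to -0.11 and -0.08, whereas 2 further fibroblast growth factor receptors grew, FGFR3 from -0.08 to -0.25 and FGFR4 from -0.11 to -0.19. ERBB4, a neuregulin receptor, was at -0.06 (SE 0.05). Centring each array on its median made the split 4 higher and 9 lower. Whether MST1R differs from the other receptor kinases was not tested.

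**Figure D5:**
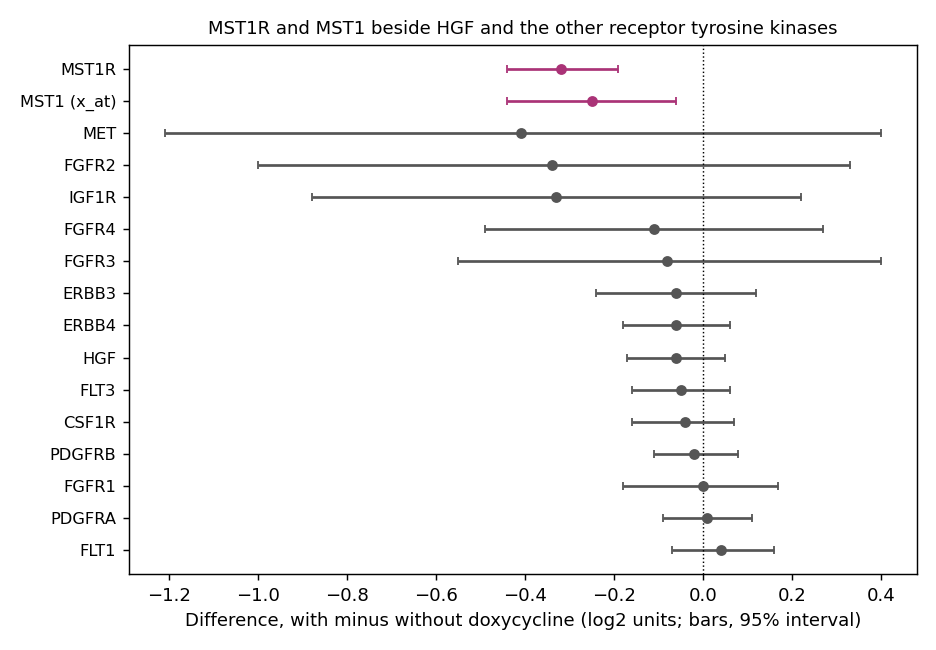
Difference in log2 units, with minus without doxycycline (horizontal axis; bars, 95% interval), for MST1R and MST1 x_at (purple) and for HGF and the 13 other receptor tyrosine kinases measured (grey). MET lies at -0.41 with an interval from -1.21 to 0.40, and MST1R at -0.32 with one from -0.44 to -0.19.

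Ligands of receptor tyrosine kinases other than MST1 were measured for 48 of 65 genes listed, 21 with higher and 27 with lower values, with a median difference of -0.01 log2 units. With limma 0 passed, and 5 had an unadjusted p under 0.05, beside 7.78% of all probe sets. The groups did not overlap for 5 of the 48, 3 lower and 2 higher, beside 15.8% of all probe sets. FGF18, a fibroblast growth factor, was at 0.28 log2 units (SE 0.05; limma, adjusted p = 0.392), with 7.65, 7.60 and 7.48 without and 7.85, 7.88 and 7.83 with doxycycline for replicates 1, 2 and 3. NRG1, a neuregulin, was at 0.51 (SE 0.13) on its brightest probe set and at 0.01 on both others. FGF11 was at -0.11 (SE 0.03), and VEGFA, the main vascular growth factor, at -0.22 (SE 0.08). Centring the arrays turned the split to 29 higher and 19 lower, and quantile normalizing again to 26 and 22, whereas leaving out the array that stood apart made it 17 higher and 31 lower.

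Partners of RON and genes downstream of it were represented by 5 of 33 listed, 1 with a higher and 4 with lower values. By limma 0 were past the threshold and 0 had an unadjusted p under 0.05, beside 7.78% of all probe sets. From 5 genes nothing is read from these counts. CD44, a hyaluronan receptor that works with MET-family receptors, was at -0.39 log2 units (SE 0.25) and at -0.11 without the array that stood apart. RHOA, a small GTPase of cell movement, was at -0.09 (SE 0.06), and CSF2RB, the shared beta chain of the IL-3, IL-5 and GM-CSF receptors, at -0.04 (SE 0.04). Of 32 genes listed for semaphorins, plexins and neuropilins, which together with RON and MET make up or bind the semaphorin-domain family, MET was the measured member.

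Genes near the pair on the chromosome were also read. Within 50 protein-coding genes to either side, 5 others were measured, and their groups overlapped in every case, where 15.8% of all probe sets had groups that did not; 0 of 5 is too few to set against that share. GMPPB, which makes GDP-mannose and lies between MST1 and MST1R, read 9.10, 9.08 and 8.72 log2 units without and 9.03, 9.13 and 9.19 with doxycycline. GMPPB differed by 0.15 log2 units with an SE of 0.12 (limma, adjusted p = 0.730), and by 0.02 when the array that stood apart was left out. The hyaluronidase genes HYAL3, HYAL1 and HYAL2, beyond MST1R, were at 0.13, -0.01 and 0.03 log2 units, and RHOA, on the MST1 side, at -0.09. Without that array HYAL3, HYAL1, HYAL2 and RHOA were at 0.05, -0.03, -0.01 and -0.03.

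The genes whose pattern over the 6 arrays was most like that of MST1R, by Pearson correlation among 926 genes, were CLEC12B (0.991), NOTCH1 (0.978), GAL3ST4 (0.978), HK1 (0.959) and JAG2 (0.955). Each of them split the groups as MST1R did, so the correlation includes the group difference and is a description. NOTCH1, a Notch receptor, read 8.67, 8.66 and 8.68 log2 units without and 8.42, 8.25 and 8.46 with doxycycline, and shared with MST1R its lowest array, replicate 2, and its highest, replicate 3, among those given the drug. JAG2, a Notch ligand, read 10.38, 10.43 and 10.47 without and 9.72, 9.68 and 10.17 with it. HK1, a hexokinase, differed by -0.30 log2 units, GAL3ST4, a galactose 3-sulphotransferase, by -0.42, and CLEC12B, a lectin-like receptor, by -0.10 at a level of 6.28 without doxycycline, under the lower quartile.

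For MST1, on its brighter x_at probe set, the most alike were LIF (0.996), ATRNL1 (0.987), CLEC18A (0.972), IL7 (0.970) and B4GALNT4 (0.958). LIF, a cytokine of the IL-6 family, read 11.52, 11.47 and 11.18 log2 units without and 10.79, 10.83 and 11.12 with doxycycline. It repeated the MST1 x_at pattern, including replicate 3 of each group as the nearest pair. B4GALNT4, which makes LacdiNAc chains, differed by -0.45 log2 units with overlapping groups, and CLEC18A, a C-type lectin, by -0.21. ATRNL1 and IL7 differed by only -0.05 and -0.03, and IL7, at 6.07 to 6.12, read under the lower quartile. MST1R itself was number 19 in this order (0.888), and number 4 (0.955) when the s_at probe set stood for MST1. With s_at the most alike were GAL3ST4 (0.984), CLEC18A (0.983), CLEC12B (0.970), MST1R and IL7 (0.950). LIF, ATRNL1 and B4GALNT4 were not among these, so the order depends on the probe set.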

How the data were processed

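The deposited values are log2 expression, 1259 probe sets by 6 one-colour arrays, and the authors made them with RMA, per the submitters' processing notes; RMA corrects background, quantile normalizes arrays and summarises probes, and no source names a further step. There are no detection calls, so the share of background in a value is unknown. Of the probe sets, 1043 (82.8%) were named through their RefSeq accession without version and a RefSeq table for GRCh38.p14. The test was limma's moderated one (version 3.58.1, R 4.3.3, lmFit, eBayes, two-sided, no covariate or filter), with Benjamini-Hochberg adjustment over all 1259 probe sets at 0.05. The fit was also run on simulated data with independent errors, which cannot show how it performs where an array stands apart. The brightest probe set over 6 arrays stood for a gene. The members and the 5 gene lists were chosen with earlier results of these data known. Named genes are both members, ACVR2A, list members past the threshold, up to 4 of each list by smallest p, and the 5 genes most correlated with each member; further list members, neighbours and opposite patterns were added after values were seen. The number of arrays limits precision. Protein sequences were not used here.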

Additional observations from a re-analysis of the deposited data

How the results depend on the processing

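Because both groups hold replicates 1, 2 and 3, a block on the replicate number cannot move a difference. MST1R was thus at -0.32 log2 units with the block, as without it. Same-numbered arrays did not deviate together (correlations of -0.147, -0.0428 and -0.157 for numbers 1, 2 and 3). With only 3 arrays a group, these values cannot show whether the replicates were paired. The block left 0 probe sets past the threshold. Leaving out each array in turn gave -0.36 to -0.28 for MST1R and -0.31 to -0.21 for MST1 x_at, and always 0 probe sets past the threshold. The s_at probe set, a choice made after seeing the data, put MST1 at -0.44. With array weights 1 probe set passed (limma, adjusted p = 0.0378), which was neither member, and 246 had an unadjusted p under 0.05, in place of 98; leaving out arrays gave 45 (without replicate 1 with doxycycline) to 258 (without replicate 2 lacking it). The correlation of MST1 x_at and MST1R deviations, 0.55, was 0.40 with centred arrays, -0.19 when quantile normalized again, and 0.05 to 0.78 with arrays left out. The median of the ligand list, -0.01, turned to 0.01 with centring and with quantile normalizing again, and ran from -0.02 to 0.02 with arrays left out, being 0.02 without replicate 2 lacking doxycycline. The cause of these turns was not tested. Medians of the HGF family, partner and receptor kinase lists stayed negative in every setting; that of the HGF family, which rests on MET and HGF, ran from -0.39 to -0.09 with arrays left out, and MET alone from -0.74 to -0.09.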

Other observations

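Some genes ran opposite to the pair over the 6 arrays; they were picked after their values were seen and are given as values only. GFRA3, the co-receptor for artemin, was the most opposite to MST1R (Pearson correlation -0.973 over 6 arrays) and second among those opposite to MST1 (-0.874). Its log2 levels were 6.90, 6.91 and 6.91 without and 6.98, 7.00 and 6.94 with doxycycline for replicates 1, 2 and 3, a difference of 0.07 log2 units. SLC35E3, a transporter-family gene, was opposite to MST1R at -0.947, with 8.25, 8.19 and 8.26 without and 8.42, 8.57 and 8.43 with doxycycline. CTBS, a lysosomal chitobiase, was opposite to MST1 x_at at -0.985, with 7.91, 7.95 and 8.01 without and 8.17, 8.10 and 8.05 with doxycycline. These values share the arrays and the group split with MST1R and MST1, and no test was made of them.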
